A study of Mus musculus with 24 samples.

Results

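The genes described here are 41 interferon-stimulated genes, chosen by symbol from a list that runs from the sensors of viral nucleic acid to the effector proteins, by a rule that uses no measured value. The list was made with earlier results of these data known. All 41 were found once each among the 22274 genes of the deposited table. The study lesioned the pituitary stalk of male C57BL/6J mice, which joins the hypothalamus to the pituitary, with a knife and a cathodic current (pituitary stalk electrical lesion, PEL), and sequenced RNA of 24 samples in 8 groups of 3. Hypothalamus was collected from sham-operated mice (Sham), from lesioned mice on day 3 (PEL_3d) and day 10 (PEL_10d), and from the same 3 conditions with growth hormone (Sham_GH, PEL_3d_GH, PEL_10d_GH), and hippocampus from sham-operated mice (HIP_Sham) and lesioned mice on day 10 (HIP_PEL_10d). The titles of the sham groups give no day, so comparisons of lesioned with sham groups may also hold a difference in time after surgery. All mice were of this wild-type strain, every lesioned group had the same operation, and the dose and route of growth hormone are not given in the sources used here. The hypothalamic tissue held the supraoptic and paraventricular nuclei with all their cell types, and the labels do not say whether the 3 samples of a group came from separate mice, so p-values measure the spread between these samples, which may be technical.

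Interferons are secreted proteins that warn cells of infection or damage. Type I interferons (the alpha and beta proteins) bind a receptor made of IFNAR1 and IFNAR2, and the kinases JAK1 and TYK2 then activate the complex ISGF3, which holds STAT2 and IRF9 and binds the interferon-stimulated response element (ISRE) of target promoters, whereas interferon gamma signals through IFNGR1 and IFNGR2 to the gamma-activated sequence (GAS). In the brain, microglia, astrocytes, endothelium and invading leukocytes can all express the target genes, which are kept low in the absence of injury or infection.

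Promoters of the members were read for these elements, through which the signal reaches the genes. RefSeq windows of 300 bases (250 before and 50 after the start site, build GRCm38.p6) were at hand for 31 of the 41 members. The ISRE core was searched on both strands as GAAA, any 2 bases and GAAA again, and the GAS as TTC, any 3 bases and GAA, and where a GAS overlapped an ISRE core, as in Bst2, both were counted. The ISRE core was in a window of 18 of the 31 members, or 58.1%, and in 3.99% of all 27025 genes with a window. The GAS was in a window of 8 of the 31 members, or 25.8%, and in 9.55% of all genes, and 5 members held both. A match is a description of letters and says nothing about binding in these samples. Stretches of 8 of these promoters are shown to let the shared core be seen, each 5′ to 3′ on the gene's strand with the ISRE core in capitals. They come from chr4:156200855-156200916 for Isg15, chr19:34640765-34640833 for Ifit1, chr5:120907526-120907565 for Oas1a, chr12:26456543-26456592 for Rsad2, chr8:71537567-71537622 for Bst2, chr11:48871421-48871470 for Irgm1, chr3:142620584-142620633 for Gbp2 and chr1:173741821-173741870 for Ifi207, on the minus strand except for Ifit1 and Gbp2.
Isg15: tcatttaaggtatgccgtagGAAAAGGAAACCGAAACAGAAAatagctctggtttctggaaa
Ifit1: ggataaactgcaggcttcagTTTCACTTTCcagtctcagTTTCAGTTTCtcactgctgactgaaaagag
Oas1a: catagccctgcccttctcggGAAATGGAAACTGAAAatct
Rsad2: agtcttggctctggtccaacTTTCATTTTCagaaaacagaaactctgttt
Bst2: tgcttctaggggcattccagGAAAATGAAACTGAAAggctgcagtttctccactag
Irgm1: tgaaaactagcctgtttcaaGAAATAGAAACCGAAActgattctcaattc
Gbp2: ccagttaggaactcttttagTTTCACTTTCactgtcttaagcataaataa
Ifi207: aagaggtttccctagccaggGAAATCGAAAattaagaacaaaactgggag

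In Isg15 the core overlapped itself 3 times between positions -78 and -57 from the start site, in Oas1a, Bst2 and Irgm1 it overlapped itself in a pair, and in Ifit1 it stood in a pair of separate copies. In Ifih1, Ddx58 and Ifitm3 the core lay after the start site. No ISRE core was in the window of Cmpk2 (below 0 in all 4 lesion comparisons) or of Oasl2, Irf7 and Lgals3bp, which rose in all 4. Rsad2, which neighbours Cmpk2, had 1. The part of the core in the members' changes was not tested. Between Sham and PEL_10d the median log2 fold change was 1.52 over the 18 members with the core and 0.81 over the 13 without, and in the growth hormone arm it was 1.28 over both sets.

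Each library held 15095267 to 17973494 counts. The labelled tissue was checked against 8 markers of hypothalamus and 8 of hippocampus. Summed hypothalamic markers, such as Avp, Oxt and Pmch, were 821 to 1277 FPKM in the 5 sham libraries used here and 8.05 FPKM in the library labelled Sham 1, whose hippocampal markers, such as Neurod6, summed to 224 FPKM against 42.1 to 52.1 in the 5. The library labelled HIP_Sham 1 stood the other way, with 1060.0 FPKM of hypothalamic and 43.6 FPKM of hippocampal markers, against 1.27 to 2.54 and 283 to 340 FPKM in HIP_Sham 2 and 3. Choroid plexus markers, led by Ttr, were 14770 FPKM in the library labelled Sham 1, 4315 to 5407 in HIP_Sham 2 and 3, 37.5 to 795 in HIP_PEL_10d and at most 26.8 in every other hypothalamic library. The members' median log2 ratio to the 5 sham libraries was -0.04 in the library labelled Sham 1 and 0.03 in the library labelled HIP_Sham 1, against -0.66 and -0.66 in HIP_Sham 2 and 3. The tissue field of HIP_Sham 3 names the hypothalamus while its title and markers are those of hippocampus. No library was moved to another group. The library labelled Sham 1 was left out of the comparisons with Sham, which therefore rest on Sham 2 and 3, and results with it and without the library labelled HIP_Sham 1 are given where they enter.

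After the lesion, interferon-stimulated genes of all 9 functional groups were more abundant in the hypothalamus, on day 3 and on day 10, with and without growth hormone. Between PEL_3d and Sham, 36 of the 41 members rose and 1, Cmpk2, fell (edgeR's quasi-likelihood test, Benjamini-Hochberg adjusted p under 0.05), with 22.2% of the 14905 genes tested called higher. The members' median log2 fold change was 1.56, against -0.01 over all genes tested. Between PEL_10d and Sham, 36 of 41 rose and none fell, with 7.97% of 14801 genes called higher, and the medians were 1.43 for the members and -0.01 for all genes. The growth hormone groups share no library with these. Between PEL_3d_GH and Sham_GH 40 of 41 rose, with 26.9% of 14743 genes called higher and medians of 1.44 and -0.0016, and between PEL_10d_GH and Sham_GH 38 of 41 rose, with 17.7% of 14686 genes called higher and medians of 1.36 and -0.01. In all 4 comparisons, 31 members rose, and 6.82% of the 14459 genes tested in all of them. The 41 include Zbp1, Oas2 and Oas3, which had 1 to 8 counts in Sham 2 and 3 and passed the filter on low counts through the lesioned libraries, so the text below gives their values without a fold or test. The figures of log2 fold changes draw these 3 as well. Of the other 38 members, 34 rose in PEL_3d, 33 in PEL_10d, 37 in PEL_3d_GH, 35 in PEL_10d_GH and 29 in all 4, with medians of 1.497, 1.41, 1.41 and 1.33 in the 4 comparisons. In bulk tissue more cells of a type and more RNA per cell cannot be told apart. Comparisons of day 3 and day 10 share their sham libraries and are not independent of each other.

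Every library of the lesioned group lay above every library of its sham group for 39 of 41 members in PEL_3d, 37 in PEL_10d, 38 in PEL_3d_GH and 38 in PEL_10d_GH. Among all genes tested that share was 32.3%, 23.6%, 31.8% and 24.1%, in the same order. The counts of members include Zbp1, Oas2 and Oas3, which lay above in each of these comparisons. They passed the filter on low counts through the lesioned libraries, so their separation adds no support. The counts of calls that follow are also over all 41 members. The number of members called higher at an adjusted p under 0.05 in the comparisons without growth hormone, which rest on 2 Sham libraries, moved with the choice of Sham libraries. For PEL_3d it was 20 without Sham 2, 22 without Sham 3 and 19 with the library labelled Sham 1, beside 14.9%, 15.8% and 10.4% of all genes. For PEL_10d it was 7, 12 and 12, beside 1.28%, 1.89% and 1.81% of all genes. With the library labelled Sham 1 the sign was positive for 40 of 41 members at both times. In the growth hormone arm, leaving out any 1 library gave 37 to 40 members called on day 3 and 36 or 37 on day 10.

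The library labelled Sham 1, which entered none of these fits, lay between Sham 2 and 3 or close to them for most members described in full below. Its sensors read 2.09 FPKM for Ddx58, 1.79 for Ifih1 and 0.319 for Zbp1, and its transcription factors 4.78 for Irf9 and 3.48 for Irf1. Among the antiviral families, it read 0.485 for Oas1a, 0.135 for Oas2, 1.3 for Oasl2, 2.57 for Ifit2 and 3.18 for Ifit3, of which the last 3 were below Sham 2 and 3, as was Isg15 at 0.929. It read 2.41 for Trim25, 0.866 for Trim30a, 0.247 for Ifi44, 0.341 for Ifi204, 0.153 for Ifi207, 2.29 for Sp100, 1.9 for Parp9, 1.49 for Dtx3l, 2.75 for Gbp2 and 4.75 for Irgm1. It was above Sham 2 and 3 for Ifitm3 at 19.6, as for Bst2 and Lgals3bp, whose values are given with the other effectors.

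**Figure D1:**
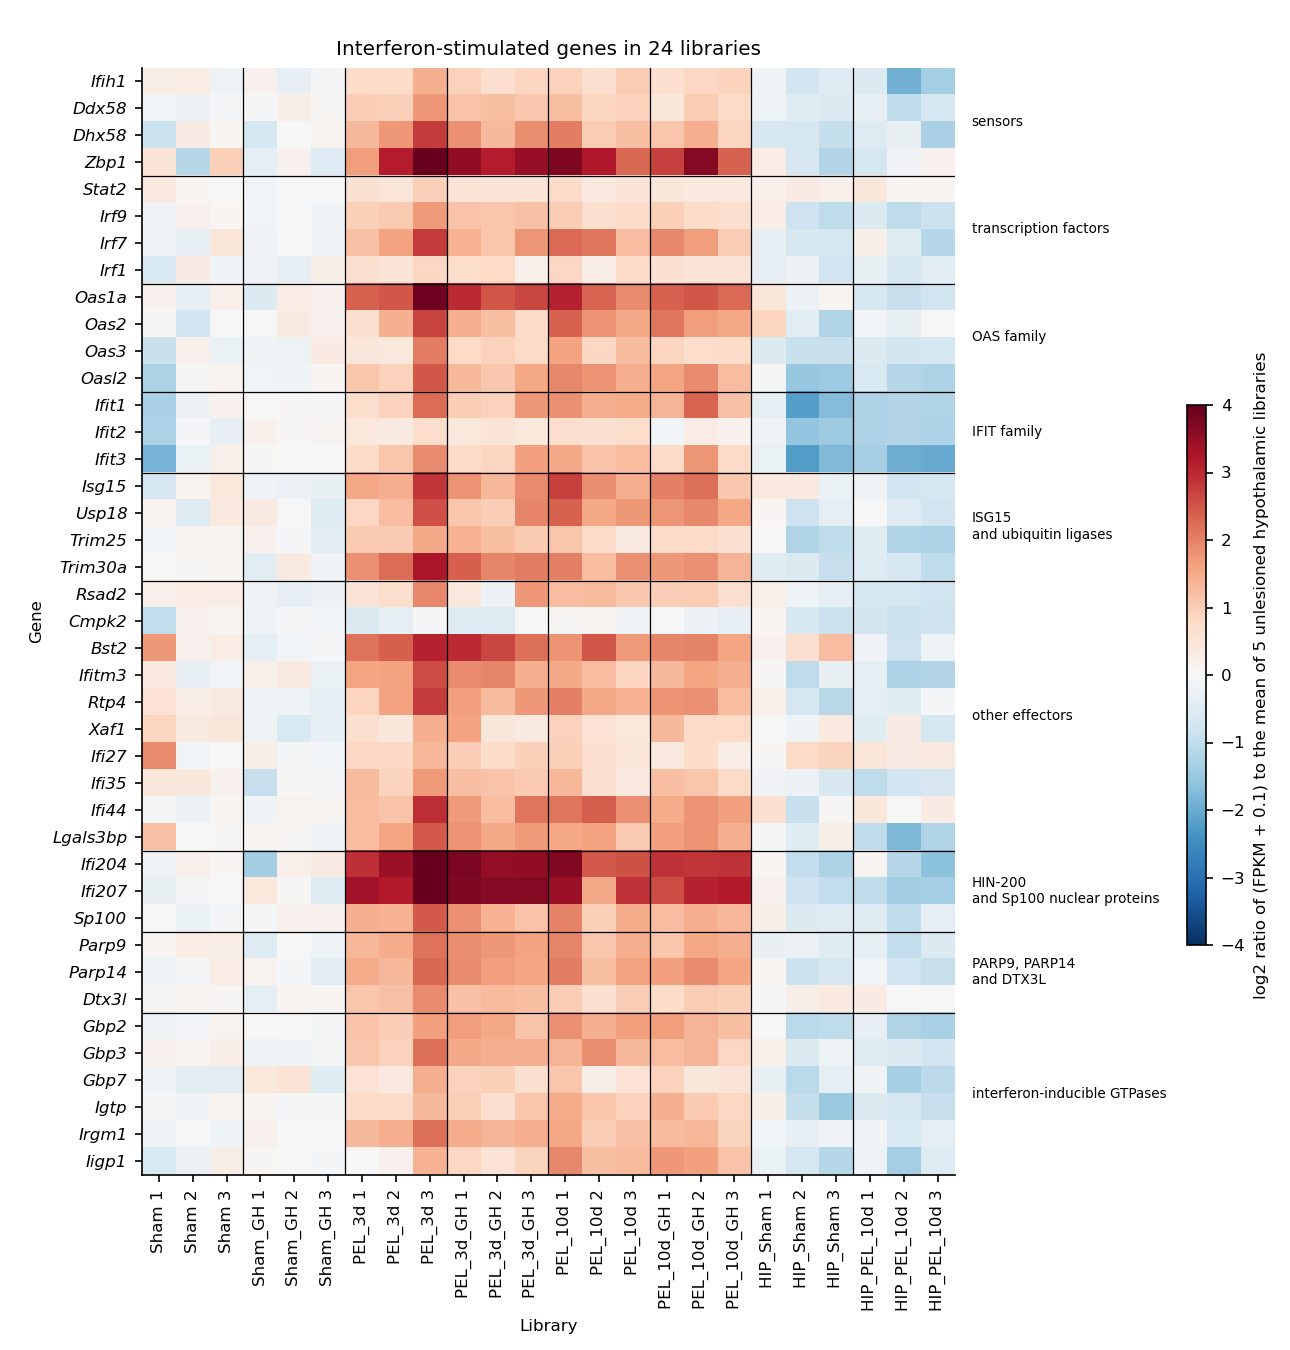
Heat map of 41 interferon-stimulated genes (rows, grouped by role) in 24 libraries (columns, 3 per group). Colour is the log2 ratio of FPKM + 0.1 to the mean of the 5 unlesioned hypothalamic libraries (Sham 2 and 3 and Sham_GH 1 to 3), with values beyond 4 drawn in the deepest colour, and the 12 lesioned hypothalamic libraries are red for nearly every gene while the hippocampal libraries are not.

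The sensors rose in each lesion comparison, apart from Dhx58 in PEL_10d, or, for Zbp1, lay above the shams in every lesioned library. Zbp1 encodes a sensor of Z-form nucleic acid that can start inflammatory cell death. It read 0.033 and 0.478 FPKM in Sham 2 and 3 (1 and 8 counts), 0.84, 2.52 and 7.72 in PEL_3d and 3.81, 2.62 and 1.34 in PEL_10d. With growth hormone it read 0.127, 0.233 and 0.108 in Sham_GH, 3.39, 2.51 and 3.19 in PEL_3d_GH and 1.87, 3.69 and 1.4 in PEL_10d_GH. No lesioned library overlapped a sham library, although PEL_3d 1 and 3 differed more from each other than any pair of shams. Ddx58 encodes RIG-I, which detects viral RNA ends, and read 1.88 and 2.17 FPKM in Sham 2 and 3, 4.57, 4.47 and 7.67 in PEL_3d and 5.26, 4.13 and 4.34 in PEL_10d. It read 2.14, 2.68 and 2.32 in Sham_GH, 5.01, 5.23 and 4.81 in PEL_3d_GH and 3.07, 4.65 and 3.87 in PEL_10d_GH. The groups did not overlap, and Ddx58 rose in PEL_3d, PEL_10d, PEL_3d_GH and PEL_10d_GH by 1.43 ± 0.24, 1.15 ± 0.15, 1.05 ± 0.12 and 0.67 ± 0.16 on the log2 scale (adjusted p = 0.00106, 0.0029, 6.28e-05 and 0.0107 in the same order). Ifih1 encodes MDA5, a sensor of long double-stranded RNA, and read 1.89 and 1.29 FPKM in Sham 2 and 3, 2.57, 2.61 and 4.21 in PEL_3d and 2.98, 2.4 and 3.13 in PEL_10d. With growth hormone Ifih1 read 1.72, 1.18 and 1.47 in Sham_GH, 2.96, 2.5 and 2.84 in PEL_3d_GH and 2.45, 2.74 and 2.9 in PEL_10d_GH. Sham and lesioned libraries again did not overlap (1.03 ± 0.24 with adjusted p = 0.00673 on day 3 and 0.92 ± 0.19 with adjusted p = 0.0178 on day 10). Dhx58, which encodes the related helicase LGP2, rose in all but PEL_10d against Sham, where its log2 fold change was 1.40 ± 0.39 (adjusted p = 0.0604).

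The 4 transcription factors rose in all 4 comparisons. Irf9 encodes the DNA-binding subunit of ISGF3 and read 5.99 and 5.58 FPKM in Sham 2 and 3, 10.5, 11 and 17.6 in PEL_3d and 10.7, 8.42 and 8.84 in PEL_10d. Under growth hormone Irf9 read 4.95, 5.29 and 4.84 in Sham_GH, 11.8, 11.5 and 12.1 in PEL_3d_GH and 10.5, 8.97 and 8.55 in PEL_10d_GH. All lesioned libraries were above all sham libraries, with the day 3 libraries mostly above those of day 10. The log2 fold change was 1.14 ± 0.21 (adjusted p = 0.00163) on day 3 and 0.67 ± 0.13 (adjusted p = 0.0155) on day 10. Irf1, a factor that interferon gamma induces strongly, read 6.8 and 4.72 FPKM in Sham 2 and 3, 8.38, 7.76 and 9.63 in PEL_3d and 9.64, 6.49 and 9.23 in PEL_10d. Its libraries overlapped between Sham and PEL_10d and between Sham_GH (4.85, 4.12 and 6.33) and PEL_3d_GH (8.84, 9.4 and 6.15), and PEL_10d_GH read 8.27, 7.68 and 7.64. Irf1 nevertheless passed the test in each, at 0.999 ± 0.16 (adjusted p = 0.000633) on day 3 and 0.76 ± 0.17 (adjusted p = 0.0281) on day 10. The test reads counts, and these fitted changes were larger than the FPKM values of Irf1 would give. Irf7, which amplifies the type I interferon genes, rose by 1.96 ± 0.48 and 1.85 ± 0.36, and Stat2, which is part of ISGF3, by 0.64 ± 0.15 and 0.50 ± 0.13 on the log2 scale.

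The OAS family, whose enzymes make the oligoadenylate that switches on RNase L, is described by Oas1a and Oasl2, with Oas2 and Oas3 near the limit of detection in the shams. Oas1a (chr5:120896256-120907521, GRCm38, minus strand) read 0.316 and 0.505 FPKM in Sham 2 and 3, 2.57, 2.85 and 7.65 in PEL_3d and 4.34, 2.53 and 1.85 in PEL_10d. In the growth hormone arm Oas1a read 0.261, 0.547 and 0.493 in Sham_GH, 4.07, 2.87 and 3.21 in PEL_3d_GH and 2.61, 2.84 and 2.45 in PEL_10d_GH. The lowest lesioned library was above every sham library, and PEL_3d 3 was above all others. The log2 fold change was 3.36 ± 0.57 (adjusted p = 0.00107) on day 3 and 2.77 ± 0.45 (adjusted p = 0.00718) on day 10, and 2.91 ± 0.28 and 2.55 ± 0.26 with growth hormone. Oas2 (chr5:120730333-120749853, minus strand), in the same cluster, was scarce, at 0.034 and 0.133 FPKM in Sham 2 and 3 (2 and 8 counts), 0.269, 0.511 and 1.38 in PEL_3d and 1.09, 0.69 and 0.561 in PEL_10d. It read 0.132, 0.193 and 0.156 in Sham_GH, 0.529, 0.425 and 0.289 in PEL_3d_GH and 0.908, 0.637 and 0.565 in PEL_10d_GH, so that the groups did not overlap. Oasl2, a relative with a ubiquitin-like tail, was the most abundant of the family per length, at 3.45 and 3.61 FPKM in Sham 2 and 3, 7.21, 6.37 and 19 in PEL_3d and 12.8, 11.7 and 9.29 in PEL_10d. Oasl2 read 3.03, 2.9 and 3.52 in Sham_GH, 8.39, 7.07 and 9.79 in PEL_3d_GH and 10, 12.6 and 7.97 in PEL_10d_GH. All lesioned libraries were above the shams, and the day 10 change of 1.61 ± 0.18 (adjusted p = 0.00159) was the more precise of the pair. Oas3 had 8 and 4 counts in Sham 2 and 3, 12, 11 and 50 in PEL_3d and 35, 18 and 25 in PEL_10d, with no overlap. Reads from the near-identical Oas1 copies can be shared, and the count of Oas1a was not always whole, so its level is uncertain.

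The 3 IFIT genes, whose proteins bind foreign RNA ends and block their translation, lie side by side on chromosome 19. Ifit3 (chr19:34583531-34588731, plus strand) read 9.77 and 13.7 FPKM in Sham 2 and 3, 19.7, 25.6 and 43.8 in PEL_3d and 33.6, 26.2 and 28.2 in PEL_10d. Ifit3 read 12.2, 11.7 and 11.7 in Sham_GH, 19.9, 21.3 and 37 in PEL_3d_GH and 20.3, 40.2 and 20.3 in PEL_10d_GH. Sham and lesioned libraries did not overlap, and the change was 1.32 ± 0.29 (adjusted p = 0.00475) on day 3 and 1.30 ± 0.15 (adjusted p = 0.00191) on day 10 on the log2 scale. Ifit2 (chr19:34550694-34576419, plus strand) read 6.16 and 5 FPKM in Sham 2 and 3, 8.55, 8.04 and 10.3 in PEL_3d and 10.4, 9.62 and 10.4 in PEL_10d. Ifit2 read 7.06, 6.53 and 6.83 in Sham_GH, 8.45, 8.99 and 8.55 in PEL_3d_GH and 5.83, 7.8 and 7.07 in PEL_10d_GH. Its PEL_10d_GH libraries overlapped the Sham_GH libraries and lay below all PEL_10d libraries. Ifit2 rose between Sham and PEL_10d (0.85 ± 0.12 with adjusted p = 0.0036), and between Sham_GH and PEL_10d_GH the log2 difference was 0.01 ± 0.12 (adjusted p = 0.956). Ifit1 rose in all 4 comparisons, by 1.49 ± 0.43 and 1.63 ± 0.18 without and 1.28 ± 0.22 and 1.72 ± 0.28 with growth hormone. Ifit3 has a near-identical copy, Ifit3b, and its counts were not always whole, so the 2 genes may share reads.

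Isg15 encodes the ubiquitin-like modifier that is conjugated to many proteins during the interferon response. It read 1.7 and 2.1 FPKM in Sham 2 and 3, 4.71, 4.35 and 11.8 in PEL_3d and 10.9, 5.89 and 4.34 in PEL_10d. With growth hormone Isg15 read 1.36, 1.3 and 1.23 in Sham_GH, 5.56, 4.05 and 5.97 in PEL_3d_GH and 6.54, 7.46 and 3.37 in PEL_10d_GH. PEL_3d 3 and PEL_10d 1 stood well above the others of their groups, and no lesioned library reached down to the shams. Its log2 fold change was 1.85 ± 0.48 (adjusted p = 0.0107) on day 3 and 1.86 ± 0.43 (adjusted p = 0.0284) on day 10, and 1.97 ± 0.27 (adjusted p = 0.000193) and 2.12 ± 0.33 (adjusted p = 0.00121) in the growth hormone arm. Usp18, which removes ISG15 and dampens the receptor, rose by 1.81 ± 0.58 and 2.01 ± 0.38. Trim25, the ubiquitin ligase that acts with RIG-I, read 2.89 and 2.72 FPKM in Sham 2 and 3, 5.49, 5.52 and 7.53 in PEL_3d and 5.67, 4.44 and 3.36 in PEL_10d. Trim25 read 2.96, 2.53 and 1.86 in Sham_GH, 6.89, 6.04 and 5.51 in PEL_3d_GH and 4.43, 4.44 and 4 in PEL_10d_GH. PEL_10d 1 was above PEL_3d 1 and 2, and PEL_10d 2 and 3 lay between the shams and day 3, whereas in the growth hormone arm all day 10 libraries lay between them. The log2 difference passed the threshold on day 3 (1.12 ± 0.15 with adjusted p = 0.000251) and not on day 10 (0.66 ± 0.19 with adjusted p = 0.0716). Trim30a, a tripartite motif protein that restrains inflammatory signalling, read 0.878 and 0.901 FPKM in Sham 2 and 3, 3.31, 4.44 and 9.06 in PEL_3d and 3.74, 2.15 and 3.32 in PEL_10d. Trim30a read 0.616, 1.12 and 0.769 in Sham_GH, 4.88, 3.59 and 3.91 in PEL_3d_GH and 3.08, 3.31 and 2.34 in PEL_10d_GH. It rose in all 4 comparisons with no overlap (2.63 ± 0.41 with adjusted p = 0.000626 on day 3 and 1.76 ± 0.26 with adjusted p = 0.00451 on day 10), and it has close paralogues with which reads may be shared.

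**Figure D2:**
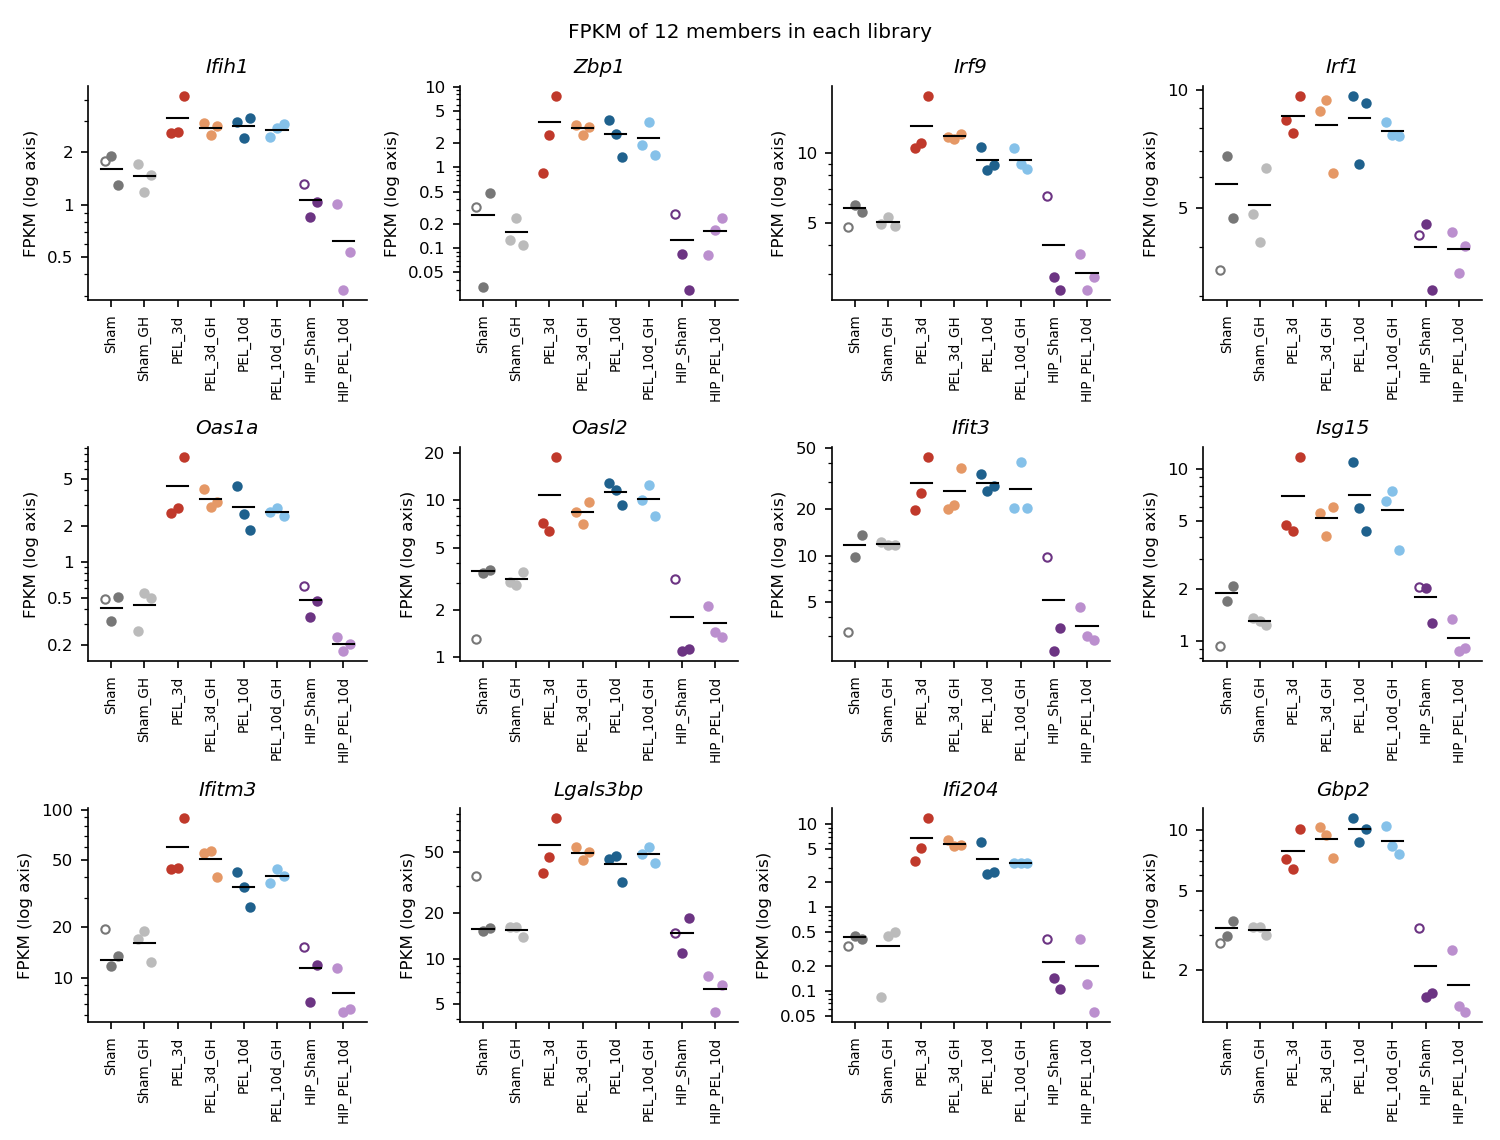
FPKM (log axis) of 12 members in each of the 24 libraries. Each point is a library, drawn left to right in the order of its number, lines are group means (Sham: libraries 2 and 3), and open points are the libraries labelled Sham 1 and HIP_Sham 1; the lesioned hypothalamic groups lie above the sham groups for each of the 12 genes, apart from an overlap for Irf1.

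The 10 other effectors act at many steps, from viral entry to release, and 7 rose on day 3 and 7 on day 10. Ifitm3, a membrane protein that blocks viral entry, read 11.8 and 13.5 FPKM in Sham 2 and 3, 44.6, 44.8 and 89.6 in PEL_3d and 42.6, 34.9 and 26.5 in PEL_10d. Ifitm3 read 17.1, 18.9 and 12.3 in Sham_GH, 55.2, 56.9 and 39.8 in PEL_3d_GH and 36.6, 44.4 and 40.3 in PEL_10d_GH. All lesioned libraries were above all shams, and all PEL_3d libraries were above all PEL_10d libraries. Its log2 fold change was 2.22 ± 0.31 (adjusted p = 0.000276) on day 3 and 1.43 ± 0.20 (adjusted p = 0.00349) on day 10. Lgals3bp, a secreted glycoprotein that binds galectin-3, read 15.2 and 16 FPKM in Sham 2 and 3, 36.5, 46.7 and 84.7 in PEL_3d and 45.5, 47.7 and 32.2 in PEL_10d. Lgals3bp read 16.2, 16.2 and 14 in Sham_GH, 54.1, 44.7 and 50.4 in PEL_3d_GH and 49.1, 54.6 and 42.5 in PEL_10d_GH. The groups did not overlap, and its change between Sham_GH and PEL_3d_GH had the smallest error of any member (1.63 ± 0.07 with adjusted p = 2.14e-07). Bst2 encodes tetherin, which holds budding virus at the cell surface, and read 3.85 and 4.21 FPKM in Sham 2 and 3, 15.7, 18.4 and 29.9 in PEL_3d and 12.2, 19.6 and 11.4 in PEL_10d. Bst2 read 2.58, 3.18 and 3.29 in Sham_GH, 27.6, 22.5 and 16.1 in PEL_3d_GH and 13.5, 13.8 and 10.5 in PEL_10d_GH, with no overlap (2.38 ± 0.29 with adjusted p = 0.000121 on day 3 and 1.82 ± 0.28 with adjusted p = 0.00539 on day 10). The library labelled Sham 1 read 11.7 FPKM for Bst2, 34.8 for Lgals3bp and 77.7 for Ifi27, well above Sham 2 and 3, beside its choroid plexus markers. Ifi44 read 0.205 and 0.286 FPKM in Sham 2 and 3, 0.737, 0.679 and 2.65 in PEL_3d and 1.48, 1.81 and 1.16 in PEL_10d. Ifi44 read 0.22, 0.295 and 0.277 in Sham_GH, 1.07, 0.739 and 1.46 in PEL_3d_GH and 0.891, 1.15 and 1.01 in PEL_10d_GH, again with no overlap (2.43 ± 0.67 with adjusted p = 0.0145 on day 3 and 2.56 ± 0.35 with adjusted p = 0.00333 on day 10). Of the remaining effectors, Rtp4 rose in all 4 comparisons (1.69 ± 0.49 to 1.92 ± 0.22 from day 3 to PEL_10d_GH), as did Ifi27 (1.14 ± 0.17 on day 3 to 0.40 ± 0.14 in PEL_10d_GH).

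Among the members that missed the threshold, Cmpk2, Rsad2, Xaf1 and Ifi35 are other effectors. Cmpk2, a mitochondrial nucleotide kinase, lies beside Rsad2 on chromosome 12, at chr12:26469204-26479837 on the plus strand, with Rsad2 at chr12:26442746-26456452 on the minus strand. Cmpk2 read 14.5 and 14 FPKM in Sham 2 and 3, 8.66, 10 and 12.3 in PEL_3d and 13.4, 14.2 and 11.8 in PEL_10d, so it was lower in every day 3 library than in the shams and overlapped them on day 10. It fell on day 3 by 0.48 on the log2 scale (SE 0.13, adjusted p = 0.0146) and did not pass the threshold in the other 3 comparisons (-0.13 ± 0.10, -0.26 ± 0.13 and -0.09 ± 0.09). The call on day 3 was lost without Sham 2, without Sham 3 and with the library labelled Sham 1, which read 6.51 FPKM, below every PEL_3d library. Rsad2, which encodes the antiviral enzyme viperin, read 0.683 and 0.695 in Sham 2 and 3, 0.826, 0.944 and 2.34 in PEL_3d and 1.42, 1.44 and 1.25 in PEL_10d. Rsad2 rose on day 10 (0.97 ± 0.22 with adjusted p = 0.0246) and missed the threshold on day 3 (0.97 ± 0.43 with adjusted p = 0.0977), where PEL_3d 3 stood above the others. Xaf1, which encodes a protein that binds the apoptosis inhibitor XIAP, missed it without growth hormone (0.74 ± 0.38 with adjusted p = 0.147 and 0.62 ± 0.27 with adjusted p = 0.192) and rose with it (1.21 ± 0.26 with adjusted p = 0.00291 and 1.36 ± 0.24 with adjusted p = 0.00231). The Xaf1 libraries of Sham_GH, at 2.54, 1.83 and 2.25 FPKM, were lower than those of Sham 2 and 3, at 3.74 and 3.98. Ifi35 rose in all but PEL_10d against Sham (0.50 ± 0.30 with adjusted p = 0.351).

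The largest changes on day 3 were in a pair of neighbouring HIN-200 genes, which encode DNA-binding proteins of the nucleus and cytoplasm. Ifi207 (chr1:173723427-173741747) and Ifi204 (chr1:173747293-173766943) both lie on the minus strand of chromosome 1 in GRCm38. Ifi207 read 0.194 and 0.204 FPKM in Sham 2 and 3, 3.08, 2.7 and 6.99 in PEL_3d and 3.29, 0.789 and 2.18 in PEL_10d. Ifi207 read 0.317, 0.218 and 0.118 in Sham_GH, 4.06, 3.79 and 3.81 in PEL_3d_GH and 1.77, 2.55 and 2.68 in PEL_10d_GH. Each lesioned library was above every sham library, and the spread on day 10 came mostly from PEL_10d 2, the lowest. The log2 fold change was 4.44 ± 0.53 (adjusted p = 9.5e-05) on day 3, 3.41 ± 0.64 (adjusted p = 0.0126) on day 10, and 4.14 ± 0.26 (adjusted p = 1.44e-06) and 3.41 ± 0.31 (adjusted p = 4.56e-05) with growth hormone. Ifi204 read 0.459 and 0.414 FPKM in Sham 2 and 3, 3.58, 5.16 and 12 in PEL_3d and 6.21, 2.52 and 2.7 in PEL_10d. Ifi204 read 0.083, 0.456 and 0.501 in Sham_GH, 6.41, 5.47 and 5.59 in PEL_3d_GH and 3.46, 3.41 and 3.45 in PEL_10d_GH. It followed the same order as Ifi207, with 3.94 ± 0.57 (adjusted p = 0.000378) on day 3 and 3.08 ± 0.48 (adjusted p = 0.00598) on day 10. The pair are similar in sequence and both had counts that were not whole, so reads may be split between them and with other HIN-200 genes. Sp100, a protein of PML nuclear bodies, read 1.89 and 2.18 in Sham 2 and 3, 6.49, 6.17 and 13.1 in PEL_3d and 9.42, 4.55 and 6.57 in PEL_10d. Sp100 read 2.23, 2.59 and 2.63 in Sham_GH, 8.5, 6.23 and 5.18 in PEL_3d_GH and 5.61, 6.42 and 5.91 in PEL_10d_GH, and it rose with no overlap (1.95 ± 0.34 with adjusted p = 0.00131 on day 3 and 1.67 ± 0.29 with adjusted p = 0.00908 on day 10).

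Parp9 and Dtx3l encode partners, an ADP-ribosyltransferase-like protein and a ubiquitin ligase, and the ends of the genes overlap on chromosome 16 (chr16:35938470-35972605 on the plus and chr16:35926511-35939151 on the minus strand). Since the strand setting of the counting is not given in the sources used here, their reads in that overlap cannot be told apart. Parp9 read 2.22 and 2.17 FPKM in Sham 2 and 3, 4.68, 5.23 and 8.5 in PEL_3d and 7.24, 3.96 and 5.08 in PEL_10d. Parp9 read 1.23, 1.82 and 1.58 in Sham_GH, 6.79, 6.28 and 5.65 in PEL_3d_GH and 3.97, 5.46 and 5.14 in PEL_10d_GH. Dtx3l read 1.57 and 1.5 FPKM in Sham 2 and 3, 3.19, 3.38 and 5.57 in PEL_3d and 2.98, 2.3 and 2.93 in PEL_10d. Both were above the shams in every lesioned library, and Dtx3l was higher in each PEL_3d library than in any PEL_10d library. Dtx3l read 1.11, 1.51 and 1.53 in Sham_GH, 3.41, 3.6 and 3.48 in PEL_3d_GH and 2.46, 2.99 and 2.89 in PEL_10d_GH. Parp9 rose by 1.51 ± 0.24 (adjusted p = 0.000647) on day 3 and 1.25 ± 0.21 (adjusted p = 0.00755) on day 10, and Dtx3l by 1.38 ± 0.24 (adjusted p = 0.00108) and 0.81 ± 0.16 (adjusted p = 0.0163), on the log2 scale. Parp14, a mono-ADP-ribosyltransferase, rose in all 4 comparisons, by 1.72 ± 0.29, 1.60 ± 0.25, 1.90 ± 0.16 and 1.90 ± 0.16.

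The interferon-inducible GTPases act on the membranes of intracellular pathogens and are classic targets of interferon gamma. Gbp2 (chr3:142620602-142638008, plus strand) read 2.98 and 3.52 FPKM in Sham 2 and 3, 7.16, 6.43 and 10.2 in PEL_3d and 11.6, 8.75 and 10.2 in PEL_10d. Gbp2 read 3.28, 3.28 and 3 in Sham_GH, 10.4, 9.48 and 7.28 in PEL_3d_GH and 10.5, 8.41 and 7.59 in PEL_10d_GH. It did not overlap between sham and lesioned groups, with log2 fold changes of 1.27 ± 0.20 (adjusted p = 0.000729) on day 3 and 1.62 ± 0.15 (adjusted p = 0.000749) on day 10. Irgm1, which regulates the other immunity-related GTPases, read 5.23 and 4.66 FPKM in Sham 2 and 3, 13.1, 14.4 and 24.7 in PEL_3d and 15.7, 10.4 and 11.8 in PEL_10d. Irgm1 read 5.95, 5.18 and 5.26 in Sham_GH, 14.9, 13.7 and 14.5 in PEL_3d_GH and 12.7, 13.3 and 9.81 in PEL_10d_GH, with no overlap (1.79 ± 0.26 with adjusted p = 0.000369 on day 3 and 1.32 ± 0.18 with adjusted p = 0.00331 on day 10). Iigp1 missed the threshold on day 3 (0.64 ± 0.40 with adjusted p = 0.228), with 1.16, 1.31 and 3.18 FPKM in PEL_3d against 0.954 and 1.37 in Sham 2 and 3, and rose on day 10 (1.52 ± 0.31 with adjusted p = 0.0171). Gbp3 and Igtp rose in all 4 comparisons, and Gbp7 in all but PEL_10d_GH against Sham_GH (0.48 ± 0.20 with adjusted p = 0.0945). Gbp2, Gbp3 and Gbp7 stand in 1 cluster on chromosome 3 and resemble each other, so reads may be shared between them. Their counts were all whole, and sharing was not tested.

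In some groups 1 library was the highest for most members. PEL_3d 3 was the highest of the 3 PEL_3d libraries for 41 of the 41 members, and PEL_10d 1 was the highest of PEL_10d for 33, while in PEL_3d_GH the 3 libraries were the highest for 20, 7 and 14 and in Sham_GH for 16, 15 and 10. The median log2 ratio of the members to the 5 unlesioned libraries was 1.08, 1.11 and 2.20 in PEL_3d 1, 2 and 3. Over 10 markers of microglia and macrophages, such as Csf1r and Itgam, it was 2.62, 2.80 and 2.91 in the same libraries, so the markers were nearly level where the members were not. Csf1r itself read 126, 126 and 124 FPKM. Ly6c2, a marker of inflammatory monocytes that interferon can also raise, read 0.523, 1.79 and 9.15 FPKM, and Ccr2, a chemokine receptor of monocytes, 2.14, 2.46 and 5.06 FPKM, highest in the library in which the members were highest. The summed monocyte and neutrophil markers were 8.08 to 26.9 FPKM in PEL_3d, 6.41 to 9.45 in PEL_3d_GH, 4.02 to 10.9 in PEL_10d, 12.4 to 33.8 in PEL_10d_GH and 1.5 to 5.17 in the unlesioned libraries. The part of these cells in the members' values was not tested.

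Between day 3 and day 10 no member passed the threshold in either direction, while most microglial and all reactive astrocyte markers fell. Between PEL_10d and PEL_3d, 0 of 41 members passed the threshold in edgeR (7 had an unadjusted p under 0.05 and DESeq2 called 1), with 18.5% of 14807 genes called in either direction. The members' median log2 difference was -0.25, in a range from -1.03 to 0.89 with a median standard error of 0.28, and the median of all genes was 0.01. The sign rested on PEL_3d 3: without it the median was 0.19 and 27 of 41 differences were above 0, in place of 12. A miss of the threshold does not show that the members were unchanged. The most negative values were those of Ifi207 (-1.03 ± 0.47 with adjusted p = 0.161), Trim30a (-0.87 ± 0.35 with adjusted p = 0.114), Ifi204 (-0.86 ± 0.46 with adjusted p = 0.223) and Ifitm3 (-0.78 ± 0.27 with adjusted p = 0.0783), and the most positive was that of Iigp1 (0.89 ± 0.36 with adjusted p = 0.116). Without PEL_3d 3, 5 members were called, all higher on day 10: Ifit1, Iigp1, Oasl2, Gbp2 and Cmpk2, with 1.84% of all genes called higher. Under 1 fit over all hypothalamic groups 5 were called, of which Ifitm3, Trim30a, Dtx3l and Irf9 were lower on day 10 and Iigp1 was higher, with 22.3% of all genes called in either direction. With the replicate number as a block in edgeR, Dtx3l (adjusted p = 0.0295) and Ifi207 (adjusted p = 0.0405) were called lower on day 10, beside 2101 of 14807 genes. The median log2 ratio to the unlesioned libraries was 1.62, 1.20 and 1.25 for the members in PEL_10d 1, 2 and 3, and 1.47, 1.35 and 1.51 for the microglia and macrophage markers, of which 9 of 10 were lower in PEL_10d than in PEL_3d. Csf1r fell by 0.89 and Itgam by 1.88 on the log2 scale. Summed over the list, the markers were 139 to 178 FPKM in unlesioned, 1041 to 1207 in PEL_3d and 456 to 572 in PEL_10d libraries. Of 4 reactive astrocyte markers, such as Gfap, 4 were lower on day 10 than on day 3, with sums of 1245 to 1401 and 516 to 626 FPKM. The 6 T, NK and B cell markers summed to 0 to 0.393 FPKM in unlesioned, 0.406 to 0.698 in PEL_3d and 1.35 to 2.66 in PEL_10d libraries. The difference between members and markers was described, not tested, and whether these cells set the members' levels was not tested.

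**Figure D3:**
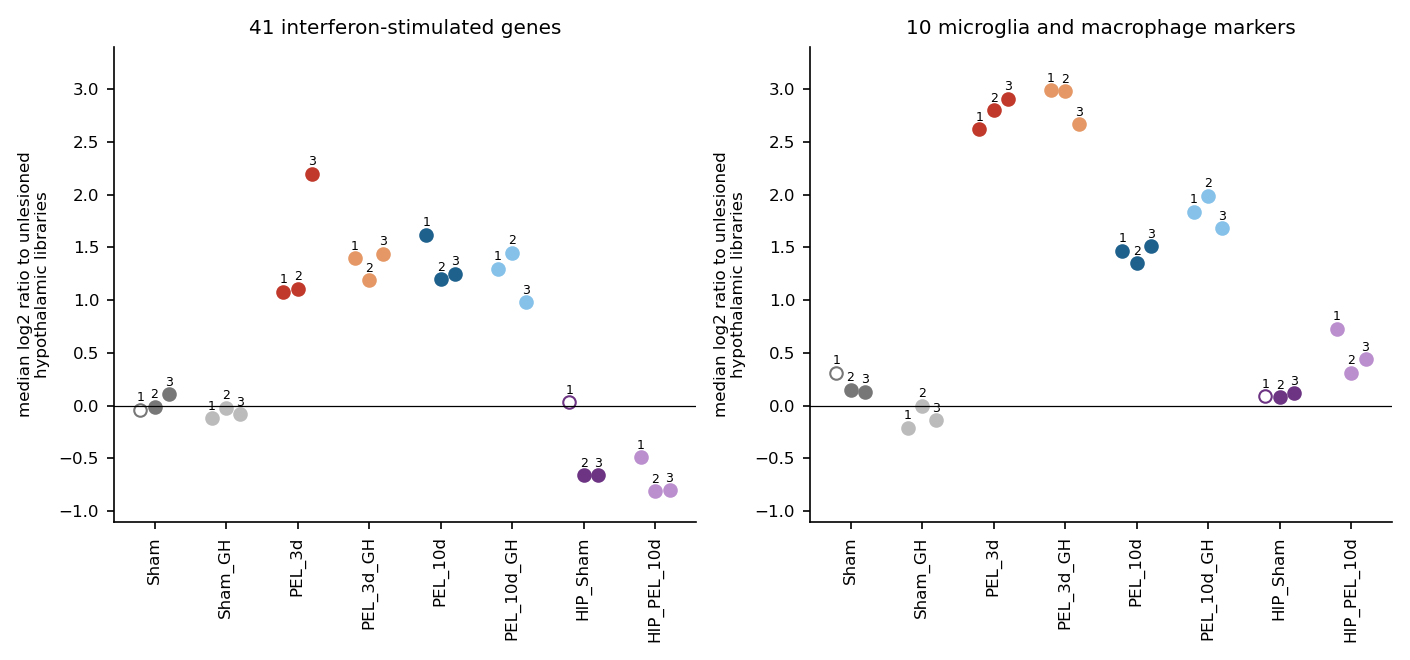
Median log2 ratio of (FPKM + 0.1) to the mean of the 5 unlesioned hypothalamic libraries, per library (numbered points), over 41 interferon-stimulated genes (left) and 10 microglia and macrophage markers (right). Open points are the libraries labelled Sham 1 and HIP_Sham 1; the markers are highest on day 3 and lower on day 10, while the members overlap between day 3 and day 10 and PEL_3d 3 stands above PEL_3d 1 and 2.

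The growth hormone groups ask whether the hormone changes the members or their response to the lesion. No member passed the threshold for growth hormone in any of the 3 conditions in edgeR. Between PEL_3d_GH and PEL_3d, 0.0270% of 14798 genes were called, 0 of 41 members, and 0 members had an unadjusted p under 0.05 (DESeq2 called 0), with a median log2 difference of -0.16 and a range from -0.78 to 0.21. That sign rested on PEL_3d 3: without it the median was 0.23 and 41 of 41 differences were above 0, in place of 6, with 8 at an unadjusted p under 0.05 and 0 called. Between PEL_10d_GH and PEL_10d 0% of 14763 genes and 0 members were called, 2 members had an unadjusted p under 0.05 and DESeq2 called 1, with a median of -0.13 and a range from -0.67 to 0.27, and without PEL_10d 1 the median was 0.10. Between Sham_GH and Sham 1.09% of 14539 genes were called and 0 of the 38 members that passed the filter on low counts, with 6 at an unadjusted p under 0.05 and 0 in DESeq2, a median of -0.03 and a range from -0.64 to 0.45. The median standard error of these log2 differences was 0.27 on day 3, 0.20 on day 10 and 0.19 in the shams, so smaller changes may have been missed. The member called by DESeq2 on day 10 was Ifit2, whose 3 PEL_10d_GH libraries lay below its 3 PEL_10d libraries (log2 difference -0.56 ± 0.13, DESeq2 adjusted p = 0.0112, and -0.56 ± 0.11 with adjusted p = 0.441 in edgeR).

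The lesion effect itself was compared between the arms as a difference of differences. It differed for 0 of 41 members on day 3, with 0.0462% of 15164 genes called, 0 members at an unadjusted p under 0.05 and 0 called by DESeq2, and for 0 of 41 on day 10, with 0% of 15116 genes called, 1 member at an unadjusted p under 0.05 and 1, Ifit2, called by DESeq2. Over the 38 members without Zbp1, Oas2 and Oas3, the differences, with growth hormone minus without, ran from -0.60 to 0.50 on day 3 and from -0.84 to 0.79 on day 10 on the log2 scale, with median standard errors of 0.39 and 0.30. Over all 41 members the median difference was -0.16 on day 3 and 0.34 without PEL_3d 3, and on day 10 it was 0.011 and lay between -0.12 and 0.12 over the alternatives. The arms share no library, and their lesion effects had the same sign for 38 of these 38 members at both times. Across the 38 members, which are not independent of each other, Pearson's r between the arms' log2 fold changes was 0.943 on day 3 and 0.898 on day 10. Without Zbp1, Oas2 and Oas3, 34 of 38 members rose in both arms on day 3 and 31 on day 10. With them, 36 rose in both arms on day 3, with 19.9% of all genes tested in both, and 34 on day 10, with 7.55%.

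**Figure D4:**
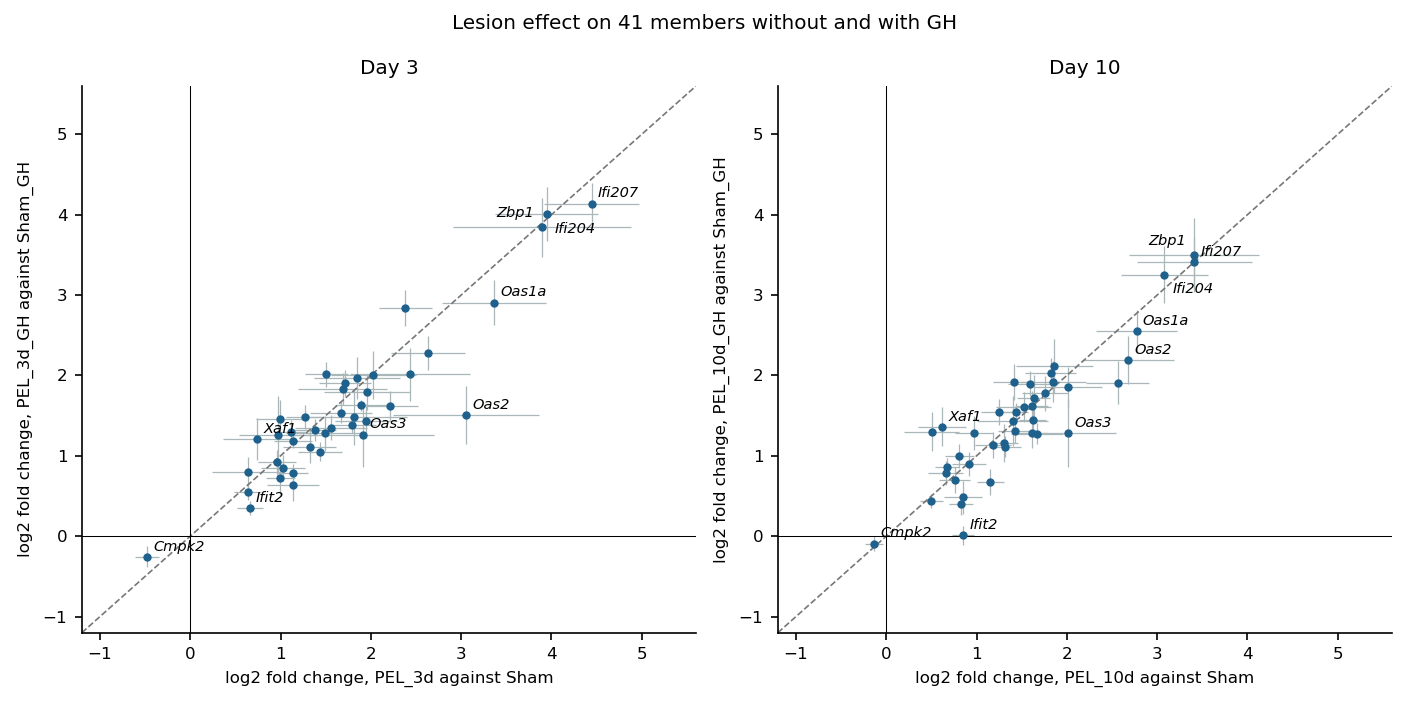
Log2 fold change of lesioned against sham hypothalamus for 41 members, without growth hormone (horizontal axis) and with it (vertical axis), on day 3 and day 10. Bars are standard errors, Zbp1, Oas2 and Oas3 have 1 to 8 counts in Sham 2 and 3, and the dashed line marks equal effects; the points follow the line, with Ifi207 and Ifi204 near the top and Cmpk2 below 0 at both times.

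In the hippocampus no member rose on day 10. Between HIP_PEL_10d and HIP_Sham 36 members passed the filter on low counts (Zbp1, Oas2, Oas3, Ifi204 and Ifi207 did not), 0 were called, and 0% of 14039 genes were called. Only 8 of the 36 log2 differences were above 0, the median was -0.14 against -0.0048 for all genes, 4 members had an unadjusted p under 0.05, all lower after the lesion, and DESeq2 called 1, Lgals3bp, as lower. Without the library labelled HIP_Sham 1, in which the hypothalamic markers were high, 873 of 14191 genes were called and 2 of 36 members, Bst2 (-1.38 ± 0.29, adjusted p = 0.0343) and Ifi27 (-0.39 ± 0.09, adjusted p = 0.0411), both lower after the lesion, with 4.07% of all genes called lower. In that fit 18 of 36 log2 differences were above 0 and the median was -0.0081, so the lean below 0 was not seen without this library. These are members that were also high in the library labelled Sham 1, and the choroid plexus markers were 4315 to 5407 FPKM in HIP_Sham 2 and 3 against 37.5 to 795 in HIP_PEL_10d, of which the part in the difference was not tested. The microglia and macrophage markers summed to 197 to 256 FPKM in HIP_PEL_10d and 164 to 177 in HIP_Sham, without a marker called.

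For no member tested did all 3 HIP_PEL_10d libraries lie above all 3 HIP_Sham libraries, and for 5 of 36 they lay below, with 8.66% of all 14039 genes above and 11.5% below. The library labelled HIP_Sham 1 limits this count, since it was the highest HIP_Sham library for 33 of 41 members. Against HIP_Sham 2 and 3 alone, all HIP_PEL_10d libraries lay above for Oasl2 and Ifit2, for example, and below for Oas1a, Lgals3bp and Bst2. The values of the members described above follow by role, in FPKM. Among the sensors, Ifih1 read 1.32, 0.847 and 1.04 in HIP_Sham and 1.01, 0.325 and 0.534 in HIP_PEL_10d. Ddx58 read 1.92, 1.58 and 1.47 in HIP_Sham and 1.75, 1.05 and 1.38 in HIP_PEL_10d. Zbp1 read 0.266, 0.085 and 0.03 in HIP_Sham and 0.082, 0.167 and 0.233 in HIP_PEL_10d. None of the 3 sensors was higher in all lesioned libraries. For the transcription factors, Irf9 read 6.5, 2.94 and 2.56 in HIP_Sham and 3.65, 2.57 and 2.92 in HIP_PEL_10d. Irf1 read 4.27, 4.58 and 3.1 in HIP_Sham and 4.37, 3.43 and 4.01 in HIP_PEL_10d. Irf9 was highest in the library labelled HIP_Sham 1, which was the highest of the 3 HIP_Sham libraries for 33 of 41 members. Oas1a read 0.628, 0.346 and 0.467 in HIP_Sham and 0.233, 0.177 and 0.202 in HIP_PEL_10d. Oas2 read 0.317, 0.067 and 0 in HIP_Sham and 0.112, 0.088 and 0.131 in HIP_PEL_10d. Oasl2 read 3.17, 1.1 and 1.13 in HIP_Sham and 2.14, 1.45 and 1.36 in HIP_PEL_10d. All 3 Oas1a libraries of HIP_PEL_10d were below all of HIP_Sham, the reverse of the hypothalamus, at a log2 difference of -1.17 ± 0.32 (adjusted p = 0.392). Ifit2 read 5.47, 2.07 and 2.24 in HIP_Sham and 2.63, 2.77 and 2.64 in HIP_PEL_10d. Ifit3 read 9.75, 2.4 and 3.38 in HIP_Sham and 4.63, 3.01 and 2.84 in HIP_PEL_10d. Isg15 read 2.06, 2.04 and 1.27 in HIP_Sham and 1.34, 0.871 and 0.903 in HIP_PEL_10d. Ifit2 and Ifit3 were higher in the library labelled HIP_Sham 1 than in any other of the hippocampus, and Isg15 was lower in HIP_PEL_10d 2 and 3 than in the shams. Trim25 read 2.58, 1.08 and 1.24 in HIP_Sham and 1.82, 1.07 and 1.02 in HIP_PEL_10d. Trim30a read 0.576, 0.536 and 0.41 in HIP_Sham and 0.566, 0.502 and 0.37 in HIP_PEL_10d. Ifitm3 read 15.3, 7.22 and 11.9 in HIP_Sham and 11.5, 6.24 and 6.55 in HIP_PEL_10d. These 3 overlapped between the groups. Lgals3bp read 14.7, 11 and 18.4 in HIP_Sham and 7.66, 4.44 and 6.72 in HIP_PEL_10d. Bst2 read 3.9, 5.44 and 8.1 in HIP_Sham and 3.09, 1.9 and 2.96 in HIP_PEL_10d. Ifi44 read 0.452, 0.09 and 0.266 in HIP_Sham and 0.388, 0.249 and 0.349 in HIP_PEL_10d. Lgals3bp and Bst2 were lower in every lesioned library (-1.05 ± 0.28 with adjusted p = 0.384 and -1.11 ± 0.38 with adjusted p = 0.451), and Ifi44 overlapped. Ifi204 read 0.414, 0.142 and 0.104 in HIP_Sham and 0.417, 0.121 and 0.055 in HIP_PEL_10d. Ifi207 read 0.25, 0.076 and 0.057 in HIP_Sham and 0.055, 0.018 and 0.02 in HIP_PEL_10d. Sp100 read 2.73, 1.53 and 1.58 in HIP_Sham and 1.6, 1.08 and 1.83 in HIP_PEL_10d. The HIN-200 pair was near the limit of detection in hippocampal libraries (1 to 15 counts). Parp9 read 1.47, 1.51 and 1.25 in HIP_Sham and 1.4, 0.866 and 1.19 in HIP_PEL_10d. Dtx3l read 1.39, 1.73 and 1.93 in HIP_Sham and 1.83, 1.45 and 1.42 in HIP_PEL_10d. Both partners overlapped between the groups. Gbp2 read 3.27, 1.48 and 1.53 in HIP_Sham and 2.52, 1.33 and 1.24 in HIP_PEL_10d. Irgm1 read 4.86, 4.17 and 4.71 in HIP_Sham and 4.8, 3.42 and 4.11 in HIP_PEL_10d. Neither GTPase separated the lesioned from the sham hippocampus.

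The difference between the regions was tested as the day 10 lesion effect in hypothalamus minus that in hippocampus. Of the 36 members that passed the filter in the hippocampus it was above 0 for 36 and passed the threshold for 8, all larger in the hypothalamus, with 1.82% of 15093 genes called in that direction, and medians of 1.48 for the 36 members and 0.04 for all genes. The 8 were Oas1a (3.94 ± 0.59 with adjusted p = 0.0185), Bst2 (2.93 ± 0.53 with adjusted p = 0.0331), Lgals3bp (2.49 ± 0.36 with adjusted p = 0.0185), Gbp3 (1.84 ± 0.29 with adjusted p = 0.0252), Trim30a (1.79 ± 0.36 with adjusted p = 0.0437), Rsad2 (1.71 ± 0.28 with adjusted p = 0.026), Irgm1 (1.42 ± 0.26 with adjusted p = 0.0332) and Ddx58 (1.36 ± 0.27 with adjusted p = 0.0434), on the log2 scale. Oas1a was scarce in every HIP_PEL_10d library, so the size of its difference is limited by depth. The count depended on the libraries. It was 6 with the library labelled Sham 1, where 40 of 41 differences were above 0, beside 93 of 14912 genes called higher. It was 16 without the library labelled HIP_Sham 1, where 39 of 41 were above 0, with all 8 among the 16, beside 6.52% of all genes. Leaving out HIP_Sham 2 or HIP_Sham 3 gave 3 each time, beside 119 and 75 of 15043 genes. It was 10 without HIP_PEL_10d 1 (262 of all genes), 9 without PEL_10d 2 (317), 1 without PEL_10d 1 (40) and 2 without PEL_10d 3 (31). It was 0 without HIP_PEL_10d 2 (34 of all genes) or HIP_PEL_10d 3 (35). Without Sham 2 or Sham 3, which leaves 1 Sham library, the members' median difference was 1.498 and 1.673. Without the library labelled HIP_Sham 1 the difference was 3.77 ± 0.68 for Oas1a, 3.18 ± 0.42 for Bst2 and 2.42 ± 0.33 for Lgals3bp. For Oas1a, Bst2 and Lgals3bp, the lower values of all HIP_PEL_10d libraries enter the difference. The choroid plexus markers differed as well, at 37.55 to 795 FPKM in HIP_PEL_10d and 4315 to 5407 FPKM in HIP_Sham 2 and 3. Their part in the difference between regions was not tested. Between the lesioned regions themselves, 34 of these 36 members, and 39 of all 41, were higher in PEL_10d than in HIP_PEL_10d, with 30.9% of 14561 genes called higher and medians of 1.85 for the 36 and 0.02 for all genes, and Stat2 (0.11 ± 0.13 with adjusted p = 0.495) and Ifi27 (0.04 ± 0.11 with adjusted p = 0.803) were not called. The 41 include Zbp1, Oas2, Oas3, Ifi204 and Ifi207, which did not pass the filter in the hippocampus and passed here through PEL_10d, and no fold is given for them. Oas1a, kept among the 36, was also scarce in HIP_PEL_10d, so its call here rests on low values in that group. This contrast holds the difference between the tissues as well as that between their responses.

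**Figure D5:**
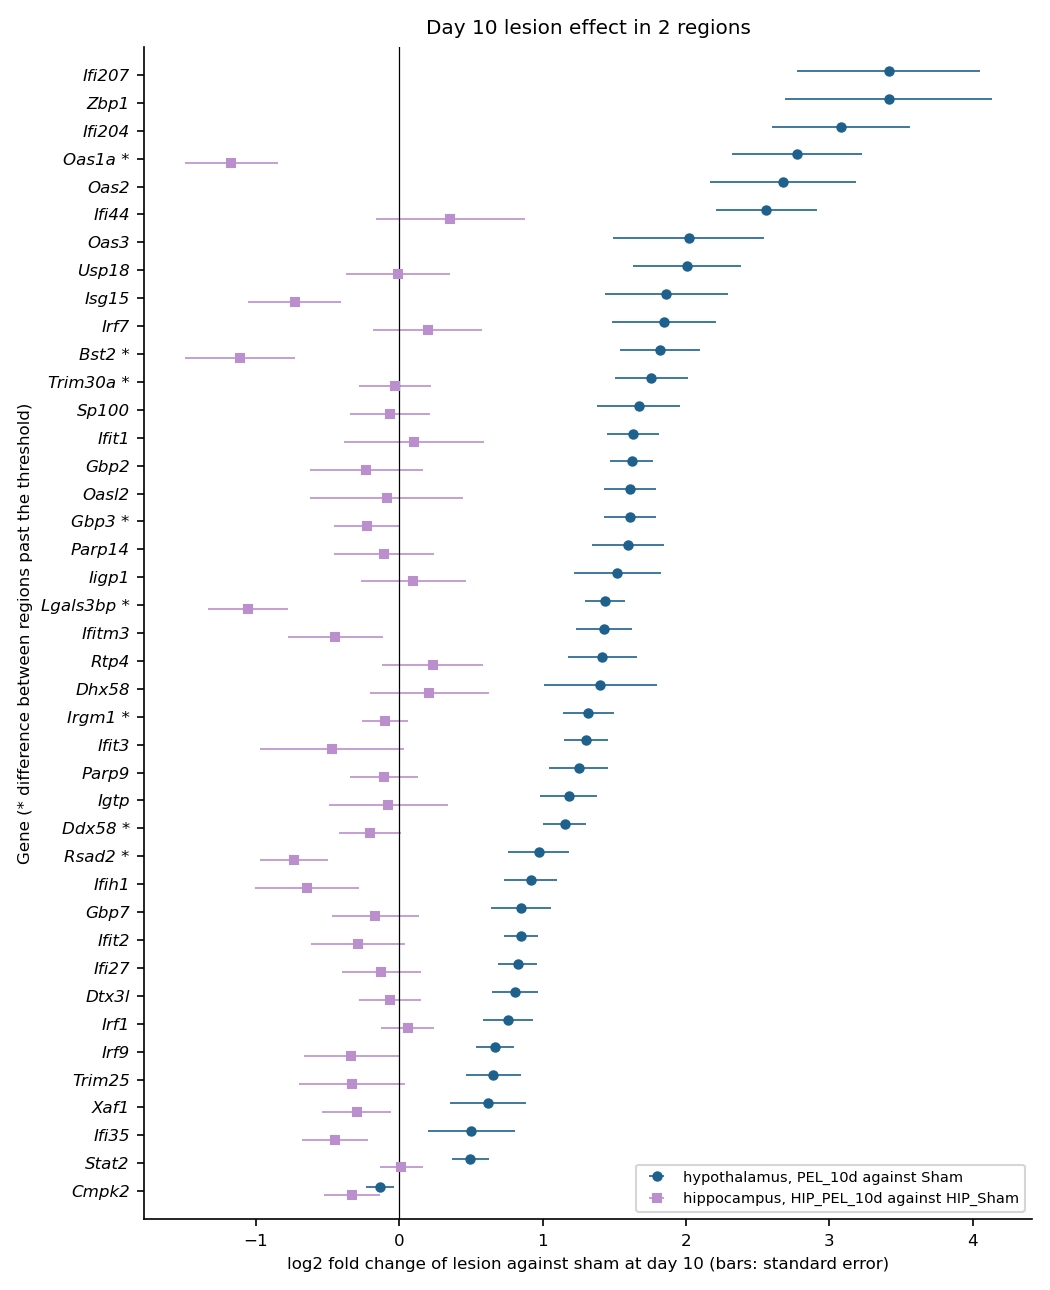
Log2 fold change (horizontal axis, bars standard errors) of lesioned against sham tissue on day 10 for each member (rows, ordered by the hypothalamic value), in hypothalamus (circles) and hippocampus (squares). Asterisks mark the 8 members whose difference between regions passed the threshold, 5 members without a square did not pass the filter on low counts in hippocampus, and the circles lie above 0 for 40 of 41 members while most squares lie below 0. The circles of Zbp1, Oas2 and Oas3 rest on few counts in the shams.

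The 6 ligand genes listed were read at or near 0. Ifnb1, Ifna2, Ifna4, Ifnl2 and Ifnl3, which encode interferons, were listed at 0 in all 24 libraries, so none of their RNA was detected at this depth. Ifng, the gene of interferon gamma, had 0 counts in PEL_3d, 2, 3 and 4 in PEL_10d, 4, 1 and 0 in PEL_10d_GH and at most 1 in any other library. Of the receptor genes, Ifnar1, Ifnar2, Ifngr1, Ifngr2 and Il10rb rose on day 3 and Ifnlr1 was not called. Ifnar1 changed by 0.65 ± 0.09 (adjusted p = 0.000353) on day 3 and 0.26 ± 0.08 (adjusted p = 0.0809) on day 10, and Ifnar2 by 0.91 ± 0.11 (adjusted p = 8.76e-05) and 0.41 ± 0.12 (adjusted p = 0.0738), on the log2 scale. Ifngr1 changed by 0.71 ± 0.10 (adjusted p = 0.00043) and 0.58 ± 0.11 (adjusted p = 0.0142), Ifngr2 by 0.49 ± 0.08 (adjusted p = 0.00083) and 0.23 ± 0.11 (adjusted p = 0.218), and Il10rb, which serves interferon lambda and interleukin 10, by 1.46 ± 0.17 (adjusted p = 7.29e-05) and 1.05 ± 0.18 (adjusted p = 0.00782). Ifnlr1, the other chain for interferon lambda, stayed at or below 0.193 FPKM everywhere (-0.04 ± 0.74 with adjusted p = 0.97 on day 3). Of the 31 ligand, receptor and signalling genes listed, 25 passed the filter on day 3 and 21 rose, none fell (median 0.97), and 12 of 25 rose on day 10 (median 0.58), beside 22.2% and 7.97% of all genes called higher. The largest were Tlr7, a sensor of single-stranded RNA (3.56 ± 0.22 on day 3 and 2.41 ± 0.30 on day 10), and the factors Irf8 (3.41 ± 0.16 and 2.48 ± 0.19) and Irf5 (2.90 ± 0.18 and 1.57 ± 0.27), all of which are expressed by microglia and macrophages. Between PEL_10d and PEL_3d, 10 of these 24 genes were lower on day 10 and none was higher, with 12.2% of all genes called lower, among them Tlr7 (-1.14 ± 0.23 with adjusted p = 0.00883), Irf8 (-0.92 ± 0.13 with adjusted p = 0.00141), Irf5 (-1.32 ± 0.19 with adjusted p = 0.0014), Ifnar1 and Ifnar2.

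Most of a further 44 interferon-stimulated genes outside the 41 also rose. On day 3 32 of the 43 tested rose and 1 fell (median 1.37), and on day 10 28 of 44 rose and none fell (median 1.27), beside the same 22.2% and 7.97% of all genes. With growth hormone 34 of 41 rose on day 3 and 34 of 42 on day 10, and 1 fell each time, beside 26.9% and 17.7% of all genes called higher. The gene that fell was Adar, an RNA-editing enzyme with many roles outside the interferon response (-0.32 ± 0.06 with adjusted p = 0.00212 on day 3 without growth hormone). The largest rises were those of Slfn2 (3.61 ± 0.48 on day 3 and 2.93 ± 0.36 on day 10) and Slfn8 (3.33 ± 0.52 and 3.14 ± 0.45), both of the Schlafen family, Ifi27l2a on day 3 (2.86 ± 0.58) and Phf11d on day 10 (2.84 ± 0.43). In the hippocampus none of 36 was called (median -0.17).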

How the data were processed

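RNA of 24 mouse samples was sequenced after SMARTER library preparation. Per the study's methods, the authors aligned reads with HISAT2 and counted them per gene with featureCounts; the submitters' notes name the builds GRCm38 and mm10. The deposited table holds estimated counts per gene, 8.22% of which were not whole, and FPKM values, which are scaled by length and depth. Counts and FPKM of a gene were not always proportional between libraries. Zbp1, for example, had 23 counts and 0.84 FPKM in PEL_3d 1, and 40 counts and 2.52 FPKM in PEL_3d 2. Gene IDs were matched to symbols for 22219 of 22274 genes.

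Counts were rounded and tested with edgeR 4.0.16 in R 4.3.3 (TMM, filterByExpr with a minimum count of 10, quasi-likelihood test, Benjamini-Hochberg adjustment over all genes tested, threshold 0.05), 1 fit per pair of groups, without the library labelled Sham 1, since the study also left out 1 Sham sample. SE is the absolute log2 fold change divided by the root of F. Ratios of FPKM used a pseudocount of 0.1. DESeq2 1.42.0, other scalings and filters, a replicate block, 1 joint fit and fits without single libraries were alternatives. The tests were checked on simulated counts. No replicate pair was identical. Totals of 15095267 to 17973494 counts limit precision for members with few counts.

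Values in every library are given for 24 members, namely the most abundant pair of each role group and the largest non-overlapping or called changes of each comparison, and members that missed a threshold are named too. The members, gene lists and tests were chosen with earlier results of these data known. Values of 1 signalling gene and 1 cell type marker are not reported here.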

Additional observations from a re-analysis of the deposited data

Results flagged for a closer look

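For 8 of the 41 members the day 10 lesion effect differed between hypothalamus and hippocampus by a test of the difference itself (edgeR, adjusted over all genes tested). The difference, hypothalamus minus hippocampus on the log2 scale, was 3.94 for Oas1a, 2.93 for Bst2, 2.49 for Lgals3bp, 1.84 for Gbp3, 1.79 for Trim30a, 1.71 for Rsad2, 1.42 for Irgm1 and 1.36 for Ddx58. The value of Oas1a is limited by depth, since it was scarce in every HIP_PEL_10d library. Of the 36 members that passed the filter on low counts in the hippocampus, 36 had a positive sign in that fit, and without the library labelled HIP_Sham 1 the sign was positive for 39 of all 41. Leaving out 1 library at a time gave between 0 and 16 members, so which members pass depends on single libraries, and the markers of tissue in the libraries labelled Sham 1 and HIP_Sham 1 went against their labels. The choroid plexus markers were higher in HIP_Sham 2 and 3 than in HIP_PEL_10d, and their part in the differences was not tested.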

How the results depend on the processing

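The direction of the lesion effect held more firmly than the calls. With the library labelled Sham 1, 19 members were called in PEL_3d and 12 in PEL_10d against Sham, in place of 37 and 36. Leaving out 1 library gave 20 to 39 and 7 to 36, the lowest without Sham 2, and with 1 Sham library left its spread was assumed to be that of the lesioned group. In the growth hormone arm these ranges were 37 to 40 and 36 to 37. Between PEL_10d and PEL_3d the 0 calls became 1 in DESeq2, 5 under 1 joint fit and 0 to 5 without single libraries. Between PEL_10d_GH and PEL_10d, and for the difference of the day 10 effect between arms, DESeq2 called 1 (Ifit2) in place of 0, and leaving out 1 library gave 0 to 0, as it did for the day 3 difference, PEL_3d_GH against PEL_3d and Sham_GH against Sham. In the hippocampus 0 became 1 in DESeq2 and in the joint fit, and 0 to 2 without single libraries. Between PEL_10d and HIP_PEL_10d the range was 38 to 39. The 8 members that differed between regions became 18 in DESeq2 and 15 in the joint fit, and 0 to 16 without single libraries. Among all genes, those called higher went from 274 of 15093 to 669 of 14966 in DESeq2 and 718 of 15506 in the joint fit. The cause was not tested.

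Same-numbered samples deviated together in 9 of 40 pairs (r above 0.1, range -0.48 to 0.40), so the numbers do not pair the samples. With the replicate number as a block 41 members were called in PEL_3d and 34 in PEL_10d against Sham, and 2 between PEL_10d and PEL_3d, and no other count moved by more than 1.

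A count of log2 fold changes of the named members under the alternatives did not take in every comparison. Of those counted, 1122 kept direction and side of the threshold, 97 kept direction only, 4 passed newly and 2 reversed. Both were Ifit2 in PEL_10d_GH against Sham_GH, at -0.11 without PEL_10d_GH 2 and -0.05 without Sham_GH 2, in a range from -0.11 to 0.12 without single libraries. Outside this count, most members' differences between PEL_3d_GH and PEL_3d changed sign without a single PEL_3d library, as given above. Many of those between PEL_10d and PEL_3d did so as well. Members with few counts in the shams, such as Zbp1, Oas2 and Oas3, have fold changes limited by depth.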

Other observations

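In the growth hormone arm, 21 of the 24 interferon ligand, receptor and signalling genes that passed the filter on low counts rose on day 3 and 18 of 24 on day 10 (edgeR), and none fell, beside 26.9% and 17.7% of all genes called higher. The median log2 fold change of those tested was 1.14 on day 3 and 0.70 on day 10. In the hippocampus 0 of 23 were called.

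Markers of other cell types of the brain were counted in the same fits. Of 10 microglia and macrophage markers, 10 rose in PEL_3d, 8 in PEL_10d, 10 in PEL_3d_GH and 10 in PEL_10d_GH, each against its own shams. Of 4 markers of border macrophages, 3 rose in PEL_3d, none of the 3 tested in PEL_10d, 4 in PEL_3d_GH and 2 in PEL_10d_GH. Of 4 reactive astrocyte markers, 4 rose in PEL_3d, 3 in PEL_10d, 4 in PEL_3d_GH and 4 in PEL_10d_GH. Of the monocyte and neutrophil markers tested, 4 of 4 rose in PEL_3d, 2 of 4 in PEL_10d, 2 of 3 in PEL_3d_GH and 3 of 3 in PEL_10d_GH. Of 4 endothelial markers, 2 rose in PEL_3d, 1 in PEL_10d, 2 in PEL_3d_GH and 2 in PEL_10d_GH, with medians between 0.22 and 0.53 on the log2 scale. Of 3 red blood cell markers 3 rose in PEL_10d_GH, and of 3 anterior pituitary markers tested there 2 rose. Of 8 hypothalamic markers, 5 fell in PEL_3d, 2 in PEL_10d, 5 in PEL_3d_GH and 3 in PEL_10d_GH. The part of these cells in the members' values was not tested.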
